A study of Mus musculus with 5 samples.

Results

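The miR-741 to miR-881 group is a set of 8 mature mouse miRNAs made from 7 neighbouring hairpins on the X chromosome. Its members are mmu-miR-741, mmu-miR-742, mmu-miR-743a, mmu-miR-871, mmu-miR-878-3p, mmu-miR-878-5p, mmu-miR-880 and mmu-miR-881, written below without the mouse prefix and taken by name from the 593 miRNA names that had a count in any library. The rule for the members uses their names and no measured value, although earlier results of these data were known when they were chosen. All 8 had counts in all 5 libraries and passed the filter on low counts, with 478981 reads between them.

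Small RNA was sequenced from testis cells of C57BL/6 mice that had been sorted by magnetic beads with a Thy1.2 antibody, whose surface antigen marks a fraction rich in spermatogonial stem cells. The germ cell culture (1 library) was derived from the Thy1+ cells and had been kept for about 10 passages. The freshly isolated Thy1+ fraction (2 libraries) is rich in those self-renewing cells, from which sperm production is maintained. The freshly isolated Thy1- fraction (2 libraries) is depleted of them and is titled somatic-enriched, although its cell type label repeats the stem cell name. Both fractions are enrichments and not pure cell types, and nothing used here says how old the mice were, or whether the replicates came from separate animals or pools, so p-values measure only the spread between these libraries. The labels name a pair of Illumina small RNA library protocols without saying which library had which, so a difference in protocol between libraries was not tested. The culture held 5110007 miRNA reads, the Thy1+ libraries 937002 and 947687, and the Thy1- libraries 2548234 and 4909753. In mixed cells, fewer cells of a type and less RNA per cell cannot be told apart.

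A miRNA is cut from one arm of an RNA hairpin, the 5p or the 3p arm, and guides the silencing of messenger RNAs mainly through its seed, bases 2 to 8 from its 5′ end. The X-linked cluster that holds this group is known in mammals as a testis-expressed and fast-evolving family of hairpins, in which copies have diverged in sequence between species and also within their seeds.

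The 7 hairpins lie on the minus strand of the mouse X chromosome (GRCm38.p6, RefSeq), within 33748 bases between positions 66776757 and 66810504. In order of rising coordinate they are Mir743, Mir742, Mir741, Mir880, Mir878, Mir881 and Mir871, so transcription runs from Mir871 towards Mir743. The closest pair, Mir878 and Mir881, is 358 bases apart. The span holds 12 RefSeq hairpins in all. In the GENCODE annotation the only other gene in the span is the processed pseudogene Gm14681, which overlaps none of the 7 hairpins, and the nearest coding genes are Slitrk2, 115364 bases away, and Gm1140, 872396 bases away on the other side. The members are thus intergenic, outside any annotated exon, intron or UTR of a coding gene.

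The mature sequences are shown in full because each member has its own seed, while several share their 3′ end. They are written 5′ to 3′ from RefSeq, with the seed in capitals, and all 8 members matched a RefSeq entry.
miR-741: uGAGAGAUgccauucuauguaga
miR-742: gAAAGCCAccaugcuggguaaa
miR-743a: gAAAGACAccaagcugaguaga
miR-878-3p: gCAUGACAccacacuggguaga
miR-880: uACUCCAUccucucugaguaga
miR-881: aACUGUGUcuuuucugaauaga
miR-871: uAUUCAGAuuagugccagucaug
miR-878-5p: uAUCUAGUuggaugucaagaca

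No seed was shared between any 2 of the 8. Outside the group, the seed of miR-743a was shared with miR-743b-3p and that of miR-871 with miR-743a-5p, and the other 6 seeds matched no other RefSeq mouse name. The first 6 sequences are 3p arms and the last 2 are 5p arms. Of the 6 3p arms, 5 end in UAGA, as do 14 of 1679 RefSeq mature mouse miRNAs (0.834%). The 14 include these 5, and also miR-743b-3p and the 3p arms of miR-465a, miR-465b and miR-465c, other products of the X-linked cluster. The closest pair was miR-742 and miR-743a, with the same base at 18 of 22 positions and 1 difference in the seed, followed by miR-743a and miR-878-3p with 17 of 22. By the same measure miR-880 and miR-881 had 15 of 22 bases in common and 3 differences in the seed. The mature miRNAs lie at positions 66796809 to 66796831 for miR-741, 66800540 to 66800561 for miR-880, 66801954 to 66801975 for miR-881, and 66776760 to 66776781 for miR-743a.

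Together the 8 members took a larger share of the miRNA reads in Thy1+ cells than in the culture or in Thy1- cells. Levels are given as counts per 1000000 miRNA reads of the library (CPM), which are shares of a library. They summed to 41384 CPM in the culture, to 92809 and 90945 CPM in the Thy1+ libraries, and to 16068 and 10879 CPM in the Thy1- libraries. As a share of all miRNA reads this was 4.14% (exact 95% binomial interval 4.12% to 4.16%) in the culture, 9.28% (9.22% to 9.34%) and 9.09% (9.04% to 9.15%) in Thy1+ cells, and 1.61% (1.59% to 1.62%) and 1.09% (1.08% to 1.10%) in Thy1- cells. On this scale the groups did not overlap, and the culture lay between the 2 fresh fractions. With library sizes adjusted by TMM factors, which set the bulk of miRNAs equal between libraries, the sum was 90593 in the culture, 59937 in Thy1+ cells (mean) and 13803 in Thy1- cells (mean), so the order of culture and Thy1+ turned. The mean was 91877 ± 1318 CPM in Thy1+ and 13474 ± 3669 CPM in Thy1- (SD, n = 2 each), a ratio of 6.82, and the exact two-sided permutation test gave p = 0.333, the smallest that 2 against 2 libraries allow. Intervals here and elsewhere cover counting error only, since reads without molecular identifiers are not independent molecules.

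The members differed in abundance by several orders of magnitude. miR-880, miR-741 and miR-881 were the 3 most abundant members in each library, in an order that differed between libraries. miR-880 stood at 8749 CPM in the culture, at 46186 and 20989 CPM in Thy1+ cells, and at 4286 and 4219 CPM in Thy1- cells. It ranked 15 among all miRNAs in the culture, 4 and 13 in the Thy1+ libraries, and 44 and 39 in the Thy1- libraries. miR-741 had 14316 CPM in the culture, 19048 and 26146 CPM in Thy1+ cells, and 5339 and 1990.1 CPM in Thy1- cells. For both, each Thy1+ library was above the culture, and the culture was above each Thy1- library.

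miR-881 followed the same order of groups, with 8264 CPM in the culture, 11951 and 27051 CPM in Thy1+ cells, and 3422 and 2190.3 CPM in Thy1- cells. miR-743a, from the hairpin at the end of the row, had 5745 CPM in the culture, 6875 and 6259 CPM in Thy1+ cells, and 1308 and 1011 CPM in Thy1- cells. Its culture value lay close below the Thy1+ libraries. miR-871, from the opposite end, had 1102 CPM in the culture, 1535 and 1582 CPM in Thy1+ cells, and 248 and 205 CPM in Thy1- cells.

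Both arms of the miR-878 hairpin are members. miR-878-3p had 961 CPM in the culture, 4971 and 5336 CPM in Thy1+ cells, and 619.6 and 694 CPM in Thy1- cells. miR-878-5p had 2231 CPM in the culture, 2229 and 3509.6 CPM in Thy1+ cells, and 826 and 565 CPM in Thy1- cells. In CPM, the 3p arm in the culture lay below both Thy1+ libraries and above both Thy1- libraries, and the 5p arm lay within the Thy1+ range. miR-742 was scarce everywhere, with 77 reads in the culture, 13 and 68 reads in Thy1+ cells, and 49 and 22 reads in Thy1- cells, or 15.1 CPM in the culture, 13.9 and 71.8 CPM in Thy1+ cells, and 19.2 and 4.48 CPM in Thy1- cells. Its groups overlapped.

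**Figure D1:**
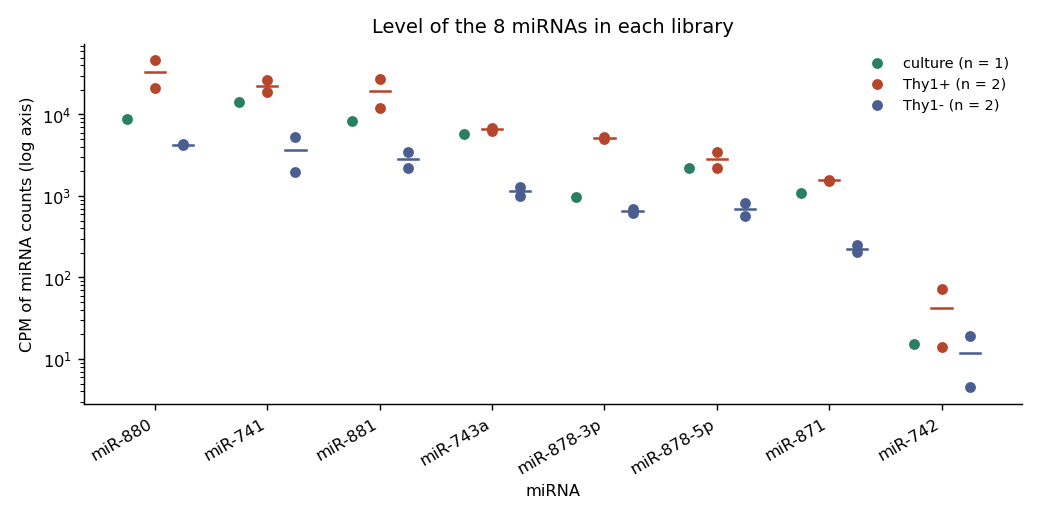
Level of each member in each of the 5 libraries, in CPM on a log axis. For 7 of the 8 members both Thy1+ libraries lie above both Thy1- libraries, and miR-742, between 4.48 and 71.8 CPM, overlaps between groups.

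The order of the levels was not fixed within a fraction. In Thy1+ cells, the means ± SD (n = 2 each) were 33587 ± 17817 CPM for miR-880, 22597 ± 5019 for miR-741 and 19501 ± 10677 for miR-881, and these neighbours did not differ beyond their spread. Below them came miR-743a at 6567 ± 435, miR-878-3p at 5154 ± 258, miR-878-5p at 2869.5 ± 905 and miR-871 at 1558 ± 33.3, each separated from the next in both libraries. In Thy1- cells, miR-741 at 3665 ± 2368 overlapped with both miR-880 at 4253 ± 47.6 and miR-881 at 2806 ± 870.9, while miR-880 lay above miR-881 in both libraries. miR-878-5p at 696 ± 185 and miR-878-3p at 657 ± 52.5 overlapped. miR-743a at 1159 ± 210 lay above that pair and miR-871 at 226 ± 30.1 below it.

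The first comparison asks which members differ between the stem cell enriched and the depleted fraction of fresh testis. Of the 8 members, 7 were higher in Thy1+ than in Thy1- cells and none was lower. Among all 425 miRNAs tested, 20.5% were higher and 7.76% lower (edgeR quasi-likelihood test, Benjamini-Hochberg adjusted p under 0.05). The member without a call was miR-742. The median log2 fold change of the 8 was 2.16, against -0.07 over all miRNAs tested. Fold changes are on edgeR's TMM scale, relative to the bulk of miRNAs.

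Among the 3p arms, miR-880 was higher in Thy1+ cells by a log2 fold change of 2.48 (SE 0.60, adjusted p = 0.0259) and miR-878-3p by 2.40 (SE 0.46, adjusted p = 0.0164). miR-881 had 2.22 (SE 0.52, adjusted p = 0.0237), miR-741 had 2.11 (SE 0.55, adjusted p = 0.0285) and miR-743a had 1.97 (SE 0.45, adjusted p = 0.0229). Of the 5p arms, miR-871 was higher by 2.24 (SE 0.49, adjusted p = 0.0215) and miR-878-5p by 1.48 (SE 0.46, adjusted p = 0.0490), close to the threshold. miR-742 had 1.32 (SE 0.83, adjusted p = 0.264). In CPM, the same 7 members had both Thy1+ libraries above both Thy1- libraries, as had 43.5% of all 425 miRNAs.

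With a single Thy1+ library, no miRNA of any kind was called in edgeR, among 449 tested without the first and 442 without the second. At an unadjusted p under 0.05 there were 112 and 108 miRNAs, 6 of the members in each case, and the median log2 fold change of the 8 was 2.04 and 2.13. One library moved the size of the change in miR-880, to 1.58 without the first Thy1+ library, and in miR-741, to 2.96 without the first Thy1- library. With counts scaled to library totals, 7 members were again higher (25.9% of all miRNAs), the median of the 8 was 2.70 and the median of all miRNAs 0.51. The 5 white blood cell miRNAs, miR-142-3p, miR-142-5p, miR-150, miR-155 and miR-223, also summed higher in Thy1+ cells, to 14904 and 26540.4 CPM, against 2017 and 1346 CPM in Thy1- cells, and their part in this comparison was not tested.

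The second comparison asks what differs once Thy1+ cells have been kept in culture. No member was called in either direction in edgeR, with 8.94% of 470 miRNAs higher and 13.4% lower. DESeq2 and limma-voom called none of the 8 either, with 26.8% and 19.6% of the 470 miRNAs called in either direction. At an unadjusted p under 0.05, 2 members were higher in edgeR and none was lower, where 182 of the 470 miRNAs reached it in either direction. The fitted log2 fold changes ran from 1.45 (SE 0.55, adjusted p = 0.0823) for miR-743a and 1.32 (SE 0.56, adjusted p = 0.115) for miR-878-5p to -0.34 (SE 0.69, adjusted p = 0.748) for miR-880 and -0.77 (SE 0.60, adjusted p = 0.398) for miR-878-3p. The median of the 8 was 0.74, against -0.09 over all miRNAs.

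The direction of this comparison turned with the scaling. With counts scaled to library totals, all 8 fitted values were below 0, their median was -0.95 and the median of all miRNAs was -1.73. miR-878-3p (-2.42, adjusted p = 0.0190) and miR-880 (-1.94, adjusted p = 0.0484) were then lower in the culture, as were 34.9% of all miRNAs. In CPM, the culture lay below both Thy1+ libraries for 6 members, the exceptions being miR-742 and miR-878-5p, and for 79.6% of all 470 miRNAs. The summed level in the culture was 0.450 times the Thy1+ mean. Under either scaling miR-878-3p and miR-880 had the lowest fitted values among the 7 abundant members, but without the first Thy1+ library miR-880 had 0.50 on the TMM scale, above miR-881 at 0.050.

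The third comparison sets the culture against the Thy1- fraction. Of the 8 members, 6 were higher in the culture and none was lower, where 18.1% of 470 miRNAs were higher and 16.8% lower. miR-743a had a log2 fold change of 3.37 (SE 0.56, adjusted p = 0.00419), miR-871 of 3.34 (SE 0.58, adjusted p = 0.00452), miR-741 of 3.08 (SE 0.62, adjusted p = 0.00767) and miR-878-5p of 2.75 (SE 0.56, adjusted p = 0.00803). miR-881 was higher by 2.63 (SE 0.59, adjusted p = 0.0112) and miR-880 by 2.08 (SE 0.65, adjusted p = 0.0380). miR-878-3p had 1.58 (SE 0.56, adjusted p = 0.0566) and miR-742 had 1.50 (SE 0.92, adjusted p = 0.236).

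The median of the 8 was 2.69, against -0.15 over all miRNAs. In CPM, the culture lay above both Thy1- libraries for 7 members, all but miR-742, and for 25.5% of all miRNAs. With counts scaled to library totals, miR-741, miR-743a and miR-871 were called higher (7.23% of all miRNAs), with a median of 1.62 for the 8 and -1.19 for all miRNAs. Without the second Thy1+ library, which is in neither of the groups compared, fewer members were called, and fewer miRNAs in all. The median of the 8 was then 2.49, against -0.37 over all miRNAs. The culture has 1 library, assumed in these fits to vary like the fresh groups, and the comparisons share libraries, so they are not independent of each other. The white blood cell miRNAs summed to 937 CPM in the culture, below both Thy1- libraries, and their part in this comparison was not tested.

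**Figure D2:**
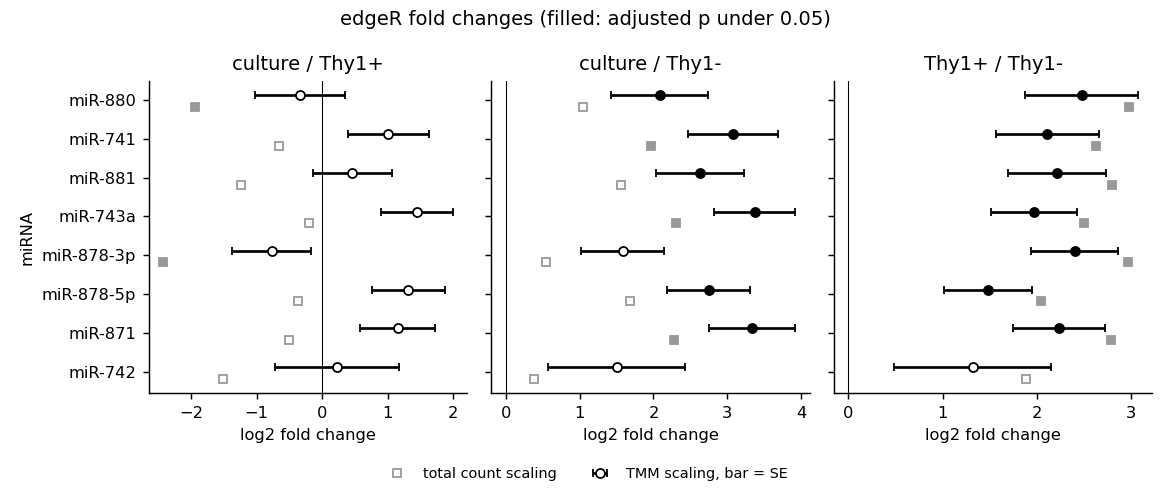
Log2 fold change of each member in the 3 comparisons, with TMM scaling (circles, bars are SE) and with scaling to total counts (squares). Filled symbols have an adjusted p under 0.05. In culture against Thy1+ the 6 positive TMM values fall below 0 with total scaling, while in the other 2 comparisons all 8 values are above 0 under both scalings.

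The make-up of the group differed between libraries of one fraction. miR-880 made up 21.1% of the members' reads in the culture, 49.8% and 23.1% in the Thy1+ libraries, and 26.7% and 38.8% in the Thy1- libraries. miR-881 made up 19.97% in the culture, 12.9% and 29.7% in the Thy1+ libraries, and 21.3% and 20.1% in the Thy1- libraries. miR-741 had 34.6% in the culture, 20.5% and 28.7% in Thy1+ cells, and 33.2% and 18.3% in Thy1- cells. Between the Thy1+ libraries miR-880 and miR-881 moved in opposite directions, by 2.20-fold and 2.26-fold, while the summed level of the 8 differed by 1.02-fold.

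There were thus 1.06 miR-880 reads for each miR-881 read in the culture, 3.86 and 0.776 in the Thy1+ libraries, and 1.25 and 1.93 in the Thy1- libraries. miR-743a took its largest share in the culture, 13.9%, against 7.41% and 6.88% in Thy1+ cells and 8.14% and 9.29% in Thy1- cells. Between the fresh fractions, miR-880 took 61.6% ± 25.3 of the summed miR-880 and miR-881 reads in Thy1+ cells and 60.7% ± 7.23 in Thy1- cells (SD, n = 2 each, exact two-sided permutation p = 1). miR-741 took 42.3% ± 18.6 of the summed miR-741 and miR-880 reads in Thy1+ cells and 43.8% ± 16.6 in Thy1- cells (exact permutation p = 1), in a design that cannot go below 0.333.

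**Figure D3:**
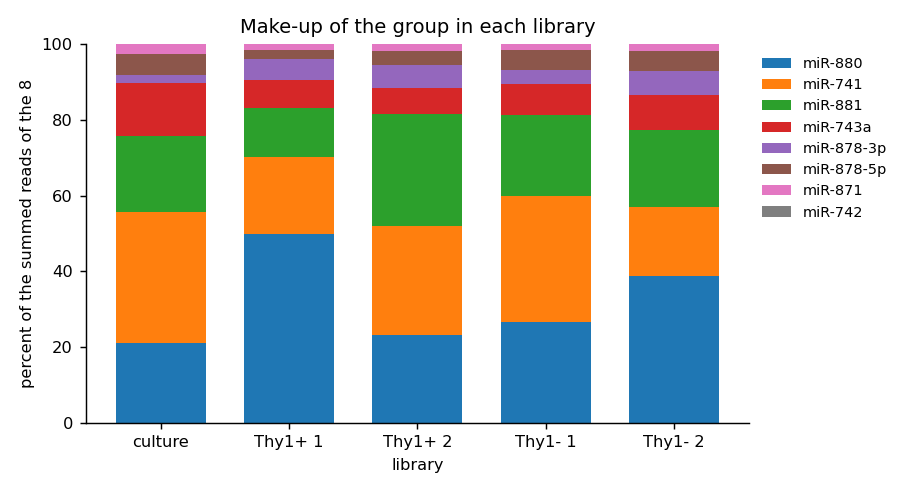
Share of the members' summed reads taken by each member in the 5 libraries, in percent. miR-880 takes 49.8% in the first Thy1+ library and 23.1% in the second, and miR-881 takes 12.9% and 29.7%.

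miR-878 is the one hairpin from which both arms are members, and its arm balance differed between culture and fresh cells. The hairpin is shown from RefSeq with both mature arms in capitals, the 5p arm first.
miR-878 hairpin: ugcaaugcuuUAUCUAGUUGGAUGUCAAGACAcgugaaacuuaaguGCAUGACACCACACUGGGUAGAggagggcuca

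The 3p arm held 4913 reads of miR-878 in the culture, against 11402 on the 5p arm, which is 30.1% (29.4% to 30.8%). It held 69.0% (67.9% to 70.1%) and 60.3% (59.3% to 61.4%) in the Thy1+ libraries, and 42.8% (41.2% to 44.5%) and 55.1% (53.9% to 56.4%) in the Thy1- libraries. The 5p arm was therefore the more abundant one in the culture, the 3p arm in both Thy1+ libraries, and the Thy1- libraries fell on either side of equality. Between the fresh fractions the means were 64.7% ± 6.16 in Thy1+ and 49.0% ± 8.68 in Thy1- (SD, n = 2 each), with an exact two-sided permutation p of 0.333, the smallest possible.

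With tags that had no mismatch, the 3p share was 29.7% in the culture, 68.8% and 59.8% in Thy1+ cells, and 42.5% and 54.5% in Thy1- cells. Of 104 hairpins with both arms named and at least 100 reads over the 2 arms in each library, 4 had the culture on one side of equality and both Thy1+ libraries on the other, namely miR-878, miR-434, miR-674 and miR-465a. Of these, miR-434 stood at 49.7% in the culture, close to equality. The 3p reads of miR-465a are an equal split of tags shared with miR-465b-3p and miR-465c-3p, so the arm balance of that hairpin itself was not measured. The range of miR-878 over the 5 libraries, 38.9 percentage points, ranked 5 among the 104, whose median range was 4.87 points. The single culture leaves its difference from the fresh libraries of either fraction without a replicate check.

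Of the other hairpins, those of miR-881 and miR-742 have the opposite arm named in the files, with an asterisk for the minor arm, and both gave few reads from it. miR-881* had 1 read in the culture, 1 and 12 reads in Thy1+ cells, and 1 read in each Thy1- library, beside 8720 to 42231 miR-881 reads. miR-742* had 14 reads in the culture, 0 and 7 reads in Thy1+ cells, and 9 and 4 reads in Thy1- cells, and the count of 0 allows up to 3.20 CPM. The list of names used for the files had no entry for the opposite arm of miR-743a, and its reads were found under another member.

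Reads listed as miR-871 in the files held a second miRNA. The 5p arm of the miR-743a hairpin, at the far end of the row, has the seed of miR-871 and differs from it by A11G and A17U, counted from the 5′ end with the miR-871 base first. The 2 sequences are shown with those bases in capitals, followed by the most abundant deposited tag of this kind, which matches miR-743a-5p at both.
miR-871: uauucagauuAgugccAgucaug
miR-743a-5p: uauucagauuGgugccUgucau
most abundant such tag: tattcagattGgtgccTgtcat

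Such tags made up 815 of 5633 miR-871 reads in the culture, 14.5% (13.6% to 15.4%). They made up 45.6% (43.0% to 48.2%) and 16.1% (14.3% to 18.04%) in the Thy1+ libraries, and 23.3% (20.1% to 26.8%) and 31.6% (28.7% to 34.6%) in the Thy1- libraries. The first Thy1+ library stood highest and the second near the culture, so the share did not follow the fractions. Without these reads miR-871 had 943 CPM in the culture, 835 and 1327 CPM in Thy1+ cells, and 190 and 140 CPM in Thy1- cells. Its culture value then lay between the Thy1+ libraries.

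In edgeR fits without them, miR-871 had a log2 fold change of 2.14 for Thy1+ against Thy1- (SE 0.51, adjusted p = 0.0238), of 1.48 for culture against Thy1+ (SE 0.60, adjusted p = 0.0977) and of 3.58 for culture against Thy1- (SE 0.61, adjusted p = 0.00411). No call on miR-871 changed. Likewise, reads listed as miR-742 held some that match miR-871-3p, 8 of 77 in the culture, 3 of 13 and 3 of 68 in Thy1+ cells, and 1 of 49 and 2 of 22 in Thy1- cells, and no call on miR-742 changed without them. Set against the 3p arm of the miR-743a hairpin, there were 2.78 miR-743a-5p reads for each 100 miR-743a reads in the culture, 10.2 and 4.06 in Thy1+ cells, and 4.41 and 6.41 in Thy1- cells. The miR-743a-5p reads had to match the hairpin without mismatch, while miR-743a reads were counted with up to 2 mismatches. The 2 counts are thus unlike measures, and the 5p side is counted low.

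**Figure D4:**
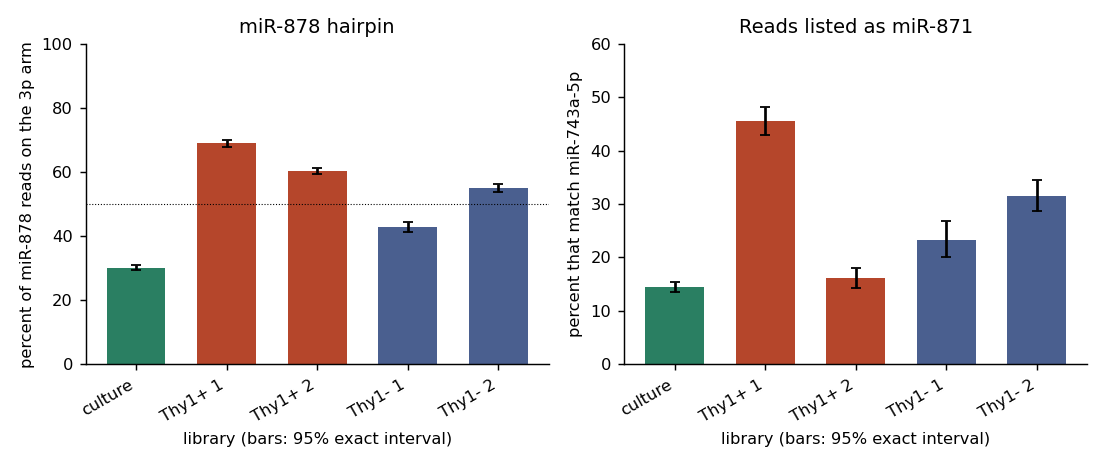
Left, percent of miR-878 reads on the 3p arm in each library, with the dotted line at equal arms. Right, percent of reads listed as miR-871 that match miR-743a-5p, with bars for exact 95% binomial intervals. The culture is lowest on the left at 30.1%, and the first Thy1+ library is highest on the right at 45.6%.

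A shift of the 5′ end by even 1 base changes the seed. Most reads of the group began at the annotated first base, 89.5% in the culture, 94.9% and 93.0% in Thy1+ cells, and 93.1% and 92.6% in Thy1- cells. Over all miRNA reads the shares were 96.9% in the culture, 95.5% and 94.2% in Thy1+ cells, and 97.2% and 96.1% in Thy1- cells. In miR-880 and miR-878-5p, 99.0% or more began there in each library. The late-starting reads came mainly from miR-743a and miR-741, whose shifted forms are shown with their own bases 2 to 8 in capitals.
miR-743a, annotated start: gAAAGACAccaagcugaguaga
miR-743a, start 1 base late: aAAGACACcaagcugaguaga
miR-741, start 2 bases late: aGAGAUGCcauucuauguaga

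Reads that began 1 base late made up 26.1% (25.5% to 26.6%) of miR-743a in the culture, 21.1% and 21.6% in Thy1+ cells, and 20.9% and 19.7% in Thy1- cells. The culture stood above all 4 fresh libraries. Over the miRNAs with at least 100 reads, 228 to 304 in a library, the median share was 0.51% to 0.68%, and 11 to 19 of them reached 20% or more. In miR-741 the most frequent shift was 2 bases, at 8.71% in the culture, 6.87% and 9.07% in Thy1+ cells, and 7.43% and 13.5% in Thy1- cells, where the median miRNA had at most 0.091%. Another 2.58% to 5.45% of miR-741 reads began 1 base late and 2.51% to 5.54% began 4 or more bases late. Neither shifted seed, AAGACAC or GAGAUGC, is the seed of any RefSeq mouse miRNA. The files list no tag that begins before the first annotated base, so early starts were not measured.

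**Figure D5:**
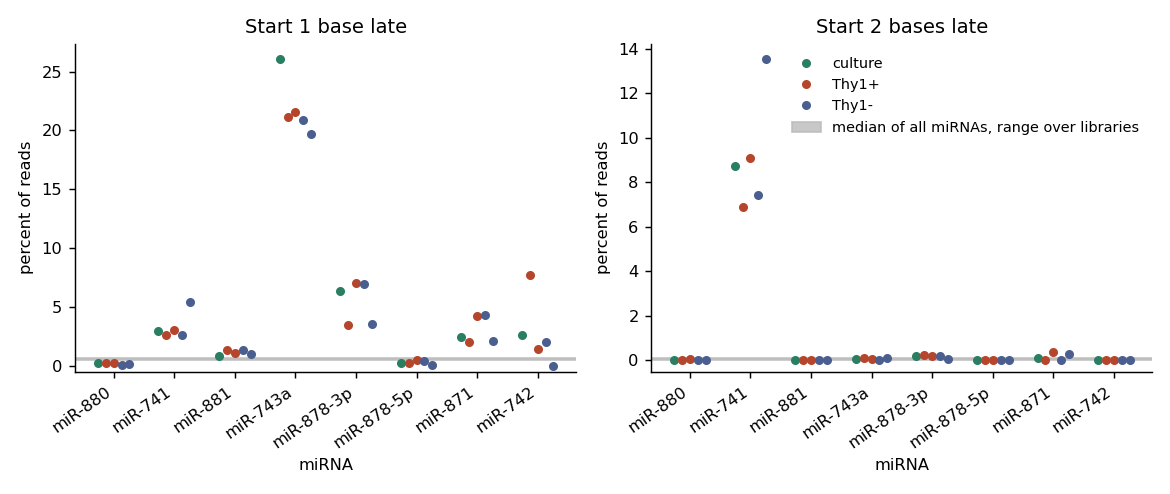
Percent of the reads of each member that begin 1 base late or 2 bases late in the 5 libraries. miR-743a stands out for 1 base, at 19.7% to 26.1%, and miR-741 for 2 bases, at 6.87% to 13.5%.

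The 3′ ends separated the members by a different line. Over the 5 libraries, 89.7% to 96.2% of miR-880 reads and 87.7% to 90.7% of miR-743a reads ended at the last annotated base, where the median miRNA had 64.1% to 71.8%. In miR-741 this share was 37.0% to 58.1%. In reads listed as miR-871 it was 64.4% in the culture, 29.6% and 49.7% in Thy1+ cells, and 45.5% and 33.4% in Thy1- cells. Without those that match miR-743a-5p, which is 1 base shorter, it was 75.1% in the culture, 54.3% and 59.1% in Thy1+ cells, and 58.7% and 47.9% in Thy1- cells. The commonest miR-741 tag was 1 base shorter than the annotated form in the culture, in the first Thy1+ library and in the first Thy1- library. It made up 44.7% of miR-741 reads in the culture, 44.0% and 33.7% in Thy1+ cells, and 50.3% and 34.0% in Thy1- cells. The full form of 23 bases made up 34.6% in the culture, 37.5% and 42.8% in Thy1+ cells, and 28.1% and 34.5% in Thy1- cells.

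Among the 3 leading members, changed last bases were commonest in miR-881 in each library. The tags are shown with the changed base in capitals, after the tag without mismatch.
miR-881 tag without mismatch: aactgtgtcttttctgaataga
miR-881 changed tag, A22T: aactgtgtcttttctgaatagT
miR-881 changed tag, A22C: aactgtgtcttttctgaatagC

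Reads that differed at the last base alone made up 3.48% of miR-881 in the culture, 6.92% and 3.30% in Thy1+ cells, and 7.53% and 4.77% in Thy1- cells. For comparison, 491 miRNAs had a full-length tag, that is, a tag of the whole annotated sequence without mismatch. Over the reads of those 491 the share was 1.70% in the culture, 1.78% and 2.10% in Thy1+ cells, and 2.05% and 2.16% in Thy1- cells. Most of these miR-881 reads carried T or C. In miR-880 and miR-741 the same share was 0.57% or less in each library, and in the less abundant miR-871, over the reads left without those that match miR-743a-5p, it was 5.92% in the culture, 6.65% and 8.11% in Thy1+ cells, and 11.2% and 9.58% in Thy1- cells. For miR-881 the first library of each fresh fraction was higher than the second.

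Changed bases inside the sequence differed between first and second libraries in the leading members. Reads with a change before the last 2 bases made up 4.14% of miR-880 in the culture, 4.32% and 24.1% in Thy1+ cells, and 8.001% and 15.6% in Thy1- cells. Both second libraries were higher than both first libraries. The same order held for miR-741, at 3.18% in the culture, 3.98% and 8.39% in Thy1+ cells, and 5.53% and 7.45% in Thy1- cells. It held for miR-881, at 2.99% in the culture, 3.45% and 7.65% in Thy1+ cells, and 4.39% and 7.99% in Thy1- cells, and for 68 of the 189 miRNAs with at least 100 reads in each library. It did not hold over the pooled reads of the 491 miRNAs with a full-length tag. There the share was 3.07% in the culture, 4.44% and 6.57% in Thy1+ cells, and 5.22% and 4.98% in Thy1- cells. The commonest single change in miR-880 was C10T, shown in capitals beside the tag without mismatch.
miR-880 tag without mismatch: tactccatcctctctgagtaga
miR-880 changed tag, C10T: tactccatcTtctctgagtaga

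That tag had 200 reads in the culture, 174 and 860 reads in Thy1+ cells, and 102 and 508 reads in Thy1- cells. Exchanges between C and T made up 62.2% of the inner-changed miR-880 reads in the culture, 55.8% and 87.7% in Thy1+ cells, and 61.3% and 85.2% in Thy1- cells. Among inner-changed reads of the 491 miRNAs with a full-length tag, the same exchanges also took a larger share in both second libraries. That share was 25.9% in the culture, 26.2% and 50.6% in Thy1+ cells, and 25.4% and 49.9% in Thy1- cells. The cause was not tested. With tags without mismatch alone, miR-880 was higher in Thy1+ than in Thy1- cells by 2.55 on the log2 scale (adjusted p = 0.0146).

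The other products of the X-linked testis cluster form a list of 23 names that includes the miR-465, miR-470, miR-471, miR-743b and miR-883 products. The 3 miR-465-3p names share all their tags and are counted once here. In Thy1+ against Thy1- cells, 6 of 17 tested were higher and none lower, with a median of 1.73, where 20.5% of all miRNAs were higher. miR-743b-3p, which has the seed of miR-743a, had 1948 CPM in the culture, 3337 and 2912 CPM in Thy1+ cells, and 989 and 553 CPM in Thy1- cells, with a log2 fold change of 1.51 in Thy1+ against Thy1- cells (adjusted p = 0.0514). miR-201, from the same chromosome, had -1.67 (adjusted p = 0.0887).

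In culture against Thy1+ cells, none of 19 tested products was called by edgeR under either scaling, and none by DESeq2 or limma-voom. In those fits 19.6% to 36.8% of the 470 miRNAs were called in either direction. At an unadjusted p under 0.05 edgeR gave 0 of these products with TMM scaling, against 182 of the 470 miRNAs. The median log2 fold change of the products was 0.39. In culture against Thy1- cells, 9 of 19 were higher and none lower, with a median of 1.81, where 18.1% of all miRNAs were higher. These counts depended on scaling. With library totals, 12 of 17 were higher in Thy1+ than in Thy1- cells (25.9% of all miRNAs). In culture against Thy1- cells 2 of 19 were then higher (7.23% of all miRNAs) and 1 was lower. Of all miRNAs, 33.0% were called there in either direction.

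Outside the X-linked list, the 5 names whose profile over the 5 libraries was most like that of the summed group, out of 215 with a mean of at least 100 CPM, were miR-378, miR-297a, miR-467e, miR-669d and miR-467a. Likeness was the root mean square distance of centred log2 CPM profiles, which was 0.28 for miR-378 and 0.44 for miR-467a, against 0.28 (miR-871) to 1.01 (miR-742) for the members themselves. miR-378 had 4496 CPM in the culture, 7585 and 10062 CPM in Thy1+ cells, and 1698 and 1626 CPM in Thy1- cells.

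The 4 miRNAs listed for spermatogonia, miR-21, miR-146a, miR-182 and miR-183, summed to 142749 CPM in the culture, 77510.0 and 85812 CPM in Thy1+ cells, and 15754 and 13422 CPM in Thy1- cells, so the order of the labels held for them, although these miRNAs were chosen by the study on these samples and are no independent check. Markers listed for other cells were present in each library, all of them with a count. The 2 gonadal somatic miRNAs summed to 173 CPM in the culture, 1138 and 2205 CPM in Thy1+ cells, and 18584 and 3712 CPM in Thy1- cells. The 3 red blood cell miRNAs summed to 12.5 CPM in the culture, 252 and 179 CPM in Thy1+ cells, and 1344 and 1475 CPM in Thy1- cells. The 5 mesenchymal miRNAs summed to 52882 CPM in the culture, 23006 and 29905 CPM in Thy1+ cells, and 39633 and 22762 CPM in Thy1- cells, without separating the fresh fractions. The 5 miRNAs listed for later germ cells summed to 196527 CPM in the culture, their highest value. In Thy1+ cells they summed to 106959 and 23757 CPM, and in Thy1- cells to 49559 and 8600.2 CPM. The fresh fractions overlapped here too, and which cells these reads came from was not tested.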

How the data were processed

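The deposited files list sequence tags with raw counts, without normalization, and each tag's place on mature mouse miRNAs with up to 2 mismatches. Per the submitters' processing notes DESeq was used. The adapter removal, the aligner and the files' build were not given in the sources used here. The files hold only tags placed on a miRNA, none of them reaching beyond a mature end, so totals are miRNA reads.

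Each tag went to its placement with the fewest mismatches, ties were split equally and sums rounded. Counts were tested with edgeR 4.0.16 under R 4.3.3 (quasi-likelihood, TMM, filterByExpr, two-sided, Benjamini-Hochberg over all miRNAs tested, threshold 0.05). Thy1+ and Thy1- were compared over the 4 fresh libraries, and the culture in a fit of all 5. Groups came from the sample titles. All 8 members are described, likeness used the 5 nearest profiles, and the other X-linked products were counted. The members and lists were chosen with earlier results of these data known. Replicates differed beyond counting noise. Alternatives used DESeq2 1.42.0, limma 3.58.1, other scalings and filters, left-out libraries and stricter tag rules. The edgeR step was tested on simulated data. Sequences and coordinates are from RefSeq GRCm38.p6.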

Additional observations from a re-analysis of the deposited data

How the results depend on the processing

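For Thy1+ against Thy1-, 6 or 7 members were called higher with the other tools, scalings, filters and tag rules. In those fits 26.2% to 33.9% of all miRNAs were called in either direction. Leaving out 1 library in turn changed how many members were called, and how many miRNAs in all. The median of the 8 was then between 1.99 and 2.44. The labels do not say that a replicate number marks a shared batch, and levels of same-numbered libraries did not deviate together (correlation -0.06 over 425 miRNAs), although exchanges between C and T made up more of the base changes in both second libraries. With the number as a replicate block, 0 members were called for Thy1+ against Thy1-, where 32 of 425 miRNAs were called. The members' adjusted p there ran from 0.0553 to 0.416. The block gave 0 members for culture against Thy1+ (88 of 470 miRNAs) and 5 for culture against Thy1- (136 of 470 miRNAs). For culture against Thy1+, scaling to library totals gave 2 members lower, as were 34.9% of all miRNAs. It turned the fitted values of miR-741 to -0.66, miR-742 to -1.50, miR-743a to -0.19, miR-871 to -0.50, miR-878-5p to -0.36 and miR-881 to -1.24. For culture against Thy1-, library totals gave 3 members higher (7.23% of all miRNAs). Leaving out 1 library gave fewer calls among all miRNAs and no more among the members, with a median of the 8 between 2.49 and 2.67. Leaving out 1 library moved miR-742 between -0.046 and 2.66 for Thy1+ against Thy1- and between -0.49 and 1.31 for culture against Thy1+, and miR-880 between 1.58 and 3.06 for Thy1+ against Thy1- and between -1.20 and 0.50 for culture against Thy1+. Over the single members, the other settings, the block included, ended a call in 9 of 72 fits for Thy1+ against Thy1- and in 4 of 72 for culture against Thy1-, where 4 others gained one. The summed level in Thy1+ was 90071 CPM with tags without mismatch, 98152 with tags of a single name and 59937 with TMM library sizes, and that in the culture 43420.1 with tags of a single name and 90593 with TMM library sizes, which turns the order of culture and Thy1+. Counting each distinct tag once put 75.9% of the members' tags at the annotated start, against 92.6% of reads (means of 5 libraries). The removal of reads that match another arm was chosen after seeing the data. Low counts limit the precision for miR-742 and the star arms.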
